A study of Homo sapiens with 12 samples.

Results

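Interferon regulatory factors (IRFs) other than IRF9 were followed through 1 and then another pulse of type I interferon. The 5 genes chosen were IRF1, IRF2, IRF3, IRF5 and IRF7, taken by symbol from the 60649 gene identifiers in the count table. Of these 5, 4 passed the count filter, as did 18119 genes in all, and IRF5 did not. The rule that chose them uses family membership, and it was set with earlier results of these data known.

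Expression was measured by RNA sequencing in wild-type AC16 cells, an established human line labelled as cardiomyocytes of the heart. There were 4 groups of 3 libraries, and the design text describes the replicates as biologically independent. Vehicle cells received PBS and carry a 24 h label. Acute cells received 24 h of recombinant human IFN-α2a at 1000 U/mL and were harvested at its end. Recovery cells received the same 24 h pulse followed by 5 d without interferon. Repeat cells received a 24 h pulse, 4 d without interferon and another 24 h pulse, and were harvested at its end. Their label gives day 7, whereas these times add up to 6 d, so the interval behind the repeat values is uncertain by the difference. The vehicle group is labelled 24 h, while the protocol speaks of matching intervals, so any difference of recovery or repeat from vehicle or acute cells cannot be told apart from time in culture. AC16 is 1 line, so the libraries do not speak for other cells.

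Library totals ranged from 39.9 to 62.3 M counts (M is 1000000), and all 12 libraries carry 1 batch label. The cardiomyocyte label was checked against 11 defining markers: 2 of 11 passed the count filter (GATA4 and ACTN2), TNNT2 (cardiac troponin T) had 31 counts over the 12 libraries, and MYL7 was at 0. All 8 of 8 fibroblast markers passed, with a summed level of 11960 to 12760 CPM per library. Single fibroblast markers moved with treatment: against vehicle, 5 of 8 were lower in acute, 6 in recovery and 6 in repeat cells, and 1 of 8, VIM, was higher in each. Of all tested genes, 21.5% were called lower in acute, 2.91% in recovery and 22.9% in repeat cells. The shares called higher were 22.3%, 3.03% and 23.4%. In acute cells LUM was at -0.95, FAP at -0.65, PDGFRB at -0.58, COL1A1 at -0.36 and VIM at 0.29 on the log2 scale against vehicle. The tested cardiomyocyte markers moved too. Against vehicle, ACTN2 was at 0.39 in acute, 0.99 in recovery and 1.28 in repeat cells, each called. GATA4 was at -0.19 in acute and -0.29 in repeat cells, both called, and at 0.08 in recovery cells, not called. The part of these marker shifts in the IRF results was not tested. CPM here is counts per 1000000 after TMM scaling between libraries. Of 8 leukocyte markers, 2 passed, CD3E, MS4A1 and NKG7 were at 0, and the summed level was 1.80 to 2.20 CPM in vehicle, 1.39 to 1.68 in acute, 1.88 to 2.32 in recovery and 1.29 to 1.77 in repeat libraries. Of 4 markers of plasmacytoid dendritic cells, 1 passed (TCF4, which other cells also express), and CLEC4C and IL3RA were at 0.

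IRFs are transcription factors that share a DNA-binding domain and bind sites built from repeats of GAAA. IRF3, IRF5 and IRF7 lie latent in the cytoplasm until a kinase phosphorylates them downstream of a pathogen sensor, after which they enter the nucleus and switch on interferon genes. IRF1 and IRF2 bind much the same sites, IRF1 mostly as an activator and IRF2 mostly as a repressor. Interferon itself acts through JAK kinases and ISGF3, a complex that holds IRF9 and STAT2, and IRF7 is a well-known target of that complex. These steps of activation happen at the protein level, whereas the values below are mRNA levels.

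The IRF1 promoter is shown because IRF1 is the member whose mRNA is classically driven by STAT-type and kB sites. The window runs from 250 bases before to 50 bases after the RefSeq start, at chr5:132490724-132491023 on GRCh38.p14, minus strand, and is written 5′ to 3′. Capitals mark letter matches to a STAT-type site (TTCNNNGAA) and a kB site. The IRF5 window shown with it, chr7:128941018-128941317 on the plus strand, is the one among 4 RefSeq windows of IRF5 that holds an IRF-type match (GAAANNGAA, read on either strand), which is in capitals.
IRF1: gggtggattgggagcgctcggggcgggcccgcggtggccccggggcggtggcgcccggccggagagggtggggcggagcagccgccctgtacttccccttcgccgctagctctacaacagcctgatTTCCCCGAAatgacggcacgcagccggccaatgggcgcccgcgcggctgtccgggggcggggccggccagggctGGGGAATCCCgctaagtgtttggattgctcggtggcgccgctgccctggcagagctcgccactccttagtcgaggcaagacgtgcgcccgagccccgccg
IRF5: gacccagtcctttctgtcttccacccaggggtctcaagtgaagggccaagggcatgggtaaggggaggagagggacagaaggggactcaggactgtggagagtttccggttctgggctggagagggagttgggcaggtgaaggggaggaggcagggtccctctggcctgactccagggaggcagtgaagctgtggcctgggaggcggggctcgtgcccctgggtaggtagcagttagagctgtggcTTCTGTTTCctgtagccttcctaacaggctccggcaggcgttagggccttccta

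The STAT-type match TTCCCCGAA of IRF1 lay at positions -124 to -116 from the start and its kB match GGGGAATCCC at -50 to -41, and 73.7% of the window was G or C. No IRF-type match was found in the IRF1 window. The IRF5 match TTCTGTTTC lay at -4 to 5. Both strands were searched, and the motifs did not overlap in these windows. Among 35116 windows of the same length for 27305 genes, 7.66% held the STAT-type letters, 8.11% the IRF-type letters and 11.3% the kB letters. IRF2, IRF3 and IRF7 had no window in the table used. A match of letters is a description of the sequence and shows no binding.

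How the IRF mRNAs answered a single pulse was read from acute against vehicle cells. IRF7, the factor that amplifies interferon production, rose 10.5-fold, IRF1 rose 1.5-fold and IRF2 rose 1.3-fold. IRF3, the factor that starts interferon production, was not called. Thus 3 of 4 tested members were higher and 0 were lower, where 22.3% of all tested genes were called higher and 21.5% lower at an adjusted p under 0.05. Over the 4 tested members the median log2 fold change was 0.48, beside 0.0002 over all 18119 tested genes. In bulk RNA, a change in the number of cells that express a gene and a change in RNA per cell cannot be told apart.

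IRF7 (ENSG00000185507.21, chromosome 11, 612553 to 615983, minus strand) was at 7.23, 7.26 and 6.30 CPM in the 3 vehicle libraries and at 71.8, 70.8 and 76.2 CPM in the 3 acute libraries. Every acute library was above every vehicle library. The group means were 6.93 ± 0.548 and 73.0 ± 2.89 CPM (SD, n = 3 each). The log2 fold change was 3.39 ± 0.048 (SE), a 10.5-fold rise, with an adjusted p of 4.42e-29 by edgeR's quasi-likelihood test. Summed leukocyte markers were at 1.39 to 1.68 CPM in acute libraries, below the 1.80 to 2.20 CPM of vehicle libraries. Any part of such cells in the IRF7 values was not tested.

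IRF1 (ENSG00000125347.15, chromosome 5, 132440440 to 132508719, minus strand), an activator of antigen presentation and growth-arrest genes, was at 25.4, 21.5 and 23.5 CPM in vehicle and 35.8, 35.2 and 35.0 CPM in acute libraries. The groups did not overlap, and the acute libraries lay closer together (SD 0.410 CPM) than the vehicle libraries (SD 1.92 CPM). The log2 fold change was 0.58 ± 0.044 (adjusted p = 9.65e-12, edgeR).

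IRF2 (ENSG00000168310.11, chromosome 4, 184385702 to 184474558, minus strand), which opposes IRF1 at shared sites, was at 18.7, 19.5 and 19.3 CPM in vehicle and 23.8, 25.9 and 25.2 CPM in acute libraries. These groups did not overlap either. Its log2 fold change was 0.38 ± 0.056 (adjusted p = 3.71e-06, edgeR). Both the activator and its antagonist therefore had higher mRNA after the pulse.

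IRF3 (ENSG00000126456.16, chromosome 19, 49659569 to 49665875, minus strand) was at 62.6, 64.8 and 61.5 CPM in vehicle and 65.6, 64.03 and 64.2 CPM in acute libraries. The groups overlapped. The log2 fold change was 0.04 ± 0.028 (adjusted p = 0.297, edgeR), with a 95% interval of -0.02 to 0.10. With an offset for the gene length that counts and TPM imply in each library it was -0.02, also not called. TPM here is the authors' abundance per gene, scaled by gene length to a sum of 1000000 per library.

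IRF5 (ENSG00000128604.20, chromosome 7, 128937457 to 128950038, plus strand), a factor of macrophages and B cells downstream of Toll-like receptors, was barely detected. Its counts were 3, 6 and 4 in vehicle, 10, 12 and 7 in acute, 2, 2 and 7 in recovery, and 3, 9 and 11 in repeat libraries, or 76 in all. The summed level was 0.0889 CPM in vehicle (exact 95% Poisson interval 0.0473 to 0.152) and 0.207 CPM in acute libraries (0.139 to 0.298), without TMM scaling. These intervals cover counting error only and overlap. All 3 acute libraries had more counts than any vehicle library. With no count filter the log2 fold change was 1.22 ± 0.603 (adjusted p = 0.155, edgeR), so a difference was not detectable at this depth. The lowest counts were at or under 3 counts, which is worth 0.0482 to 0.0751 CPM depending on the library.

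**Figure D1:**
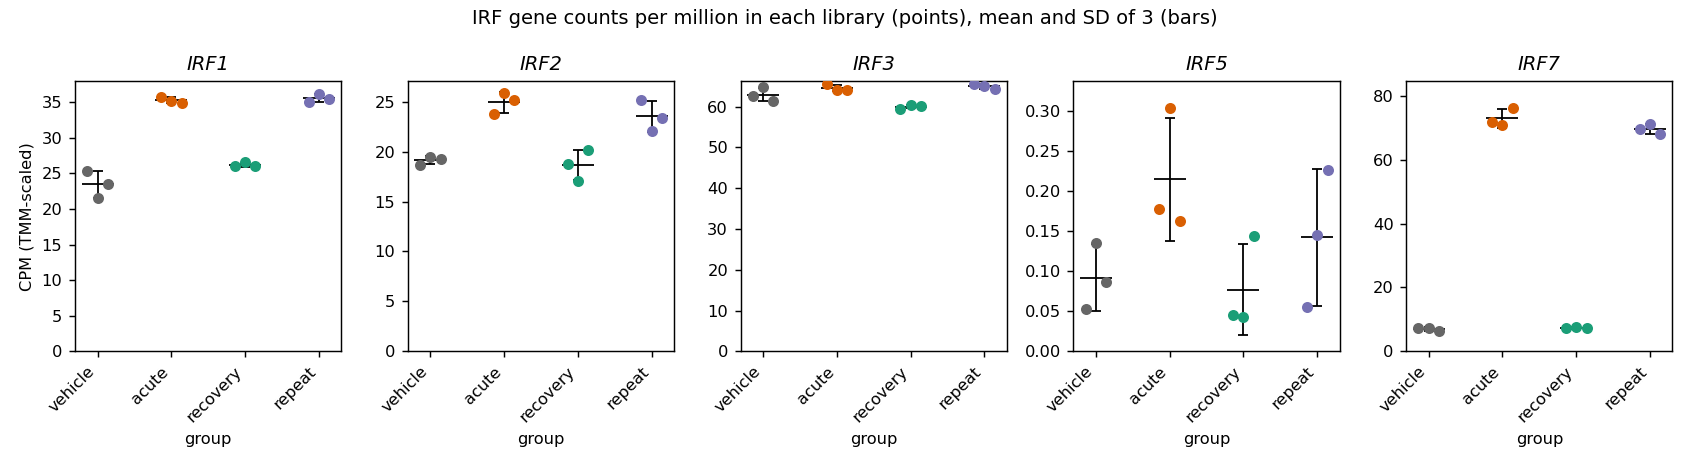
Level of each IRF gene in every library (points; y axis, CPM after TMM scaling, from 0, with a different range in each panel), with the mean and SD of 3 libraries (bars). IRF7 sat at 6.30 to 7.75 CPM in vehicle and recovery libraries and at 68.0 to 76.2 CPM in acute and repeat libraries, while IRF3 stayed between 59.5 and 65.6 CPM in all 12.

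The next comparison asked where these mRNAs stood 5 d after interferon was withdrawn. All 4 tested members were lower in recovery than in acute cells, and 1 of them, IRF1, was called higher than in vehicle cells. Against acute cells, 4 of 4 were lower and 0 higher, where 20.7% of tested genes were called lower and 20.4% higher. Against vehicle cells, 1 of 4 was higher and 0 were lower, where 3.03% of tested genes were called higher and 2.91% lower.

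IRF7 was at 7.15, 7.75 and 7.36 CPM in the recovery libraries, which overlapped the vehicle libraries. Its log2 fold change against vehicle was 0.10 ± 0.067 (adjusted p = 0.529, edgeR), with a 95% interval of -0.04 to 0.23. Against acute cells it fell by 3.30 on the log2 scale (adjusted p = 9.68e-29, edgeR).

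IRF1 was at 26.1, 26.6 and 26.04 CPM in recovery libraries, above each of the vehicle libraries and below each of the acute libraries. Against vehicle its log2 fold change was 0.16 ± 0.046 (adjusted p = 0.0393, edgeR), and against acute it fell by 0.43 (adjusted p = 4.89e-09). The difference from vehicle was close to the threshold. It was no longer called without vehicle replicate 2, the lowest vehicle library, at 0.10 (adjusted p = 0.269), nor with DESeq2 at 0.16 (adjusted p = 0.0745). The call was also lost without vehicle replicate 3 (adjusted p = 0.093), acute replicate 3 (adjusted p = 0.0522) or any 1 recovery library (adjusted p = 0.0868 to 0.139). Without vehicle replicate 1 the difference was 0.22 (adjusted p = 0.00396).

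IRF2 was at 18.7, 17.1 and 20.2 CPM in recovery libraries, and these values spanned those of vehicle. Its log2 fold change against vehicle was -0.03 ± 0.058 (adjusted p = 0.846, edgeR), and 0.05 with the gene length offset, not called either. Against acute it fell by 0.41 (adjusted p = 1.48e-06), a call that was lost on log2(TPM + 0.5) with limma, at -0.31 (adjusted p = 0.0673).

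IRF3 was at 59.5, 60.4 and 60.1 CPM in recovery libraries, below every vehicle and every acute library. The difference from vehicle, -0.07 on the log2 scale, was not called (adjusted p = 0.179, edgeR). Against acute IRF3 fell by 0.11 ± 0.028 (adjusted p = 0.00293), and with the gene length offset this was -0.09 (adjusted p = 0.172). IRF5, summed over the recovery libraries, was at 0.0792 CPM (exact Poisson interval 0.0395 to 0.142).

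The last comparisons asked how the IRFs answered another pulse after 4 d without interferon. IRF7, IRF1 and IRF2 were again above the recovery level, and IRF3 was above it by a small amount. None of these 4 was called against acute cells. Recovery cells had 5 d without interferon and are separate libraries, so they only stand in for the level before the later pulse. Against recovery cells 4 of 4 tested members were higher and 0 lower, where 21.1% of tested genes were called higher and 20.5% lower. Against vehicle cells 3 of 4 were higher and 0 lower, where the shares of all tested genes were 23.4% and 22.9%. Against acute cells 0 of 4 were higher and 0 lower, where the shares were 1.77% and 2.43%.

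IRF7 reached 69.7, 71.1 and 68.0 CPM in the repeat libraries, which is 9.38-fold over recovery (3.23 ± 0.047 on the log2 scale, adjusted p = 1.28e-28, edgeR). The repeat and acute libraries overlapped. The difference between them was -0.07 ± 0.035 (adjusted p = 0.33), with a 95% interval of -0.14 to 0.004.

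IRF1 reached 35.1, 36.2 and 35.5 CPM in the repeat libraries, all above recovery and by 0.44 ± 0.043 on the log2 scale (adjusted p = 1.87e-09, edgeR). Against acute the difference was 0.01 ± 0.042 (adjusted p = 0.927), with an interval of -0.07 to 0.10. The repeat and acute libraries overlapped.

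IRF2 reached 25.2, 22.0 and 23.4 CPM in the repeat libraries, all above the recovery libraries. The log2 fold change over recovery was 0.33 ± 0.056 (adjusted p = 2.53e-05, edgeR), and on log2(TPM + 0.5) it was 0.24, not called (adjusted p = 0.144). Over vehicle IRF2 was higher by 0.30 ± 0.055 (adjusted p = 7.3e-05), and by 0.29 on log2(TPM + 0.5), not called (adjusted p = 0.0736). Against acute the difference was -0.08 ± 0.054 (adjusted p = 0.478), with an interval of -0.19 to 0.03.

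IRF3 was at 65.5, 65.02 and 64.4 CPM in the repeat libraries, above the recovery libraries by 0.11 ± 0.028 on the log2 scale (adjusted p = 0.00122, edgeR). With the gene length offset the difference was 0.11 and not called (adjusted p = 0.0985). Against vehicle its difference was 0.05 ± 0.027 (adjusted p = 0.182). IRF5 in the repeat libraries summed to 0.139 CPM (exact Poisson interval 0.0880 to 0.208).

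**Figure D2:**
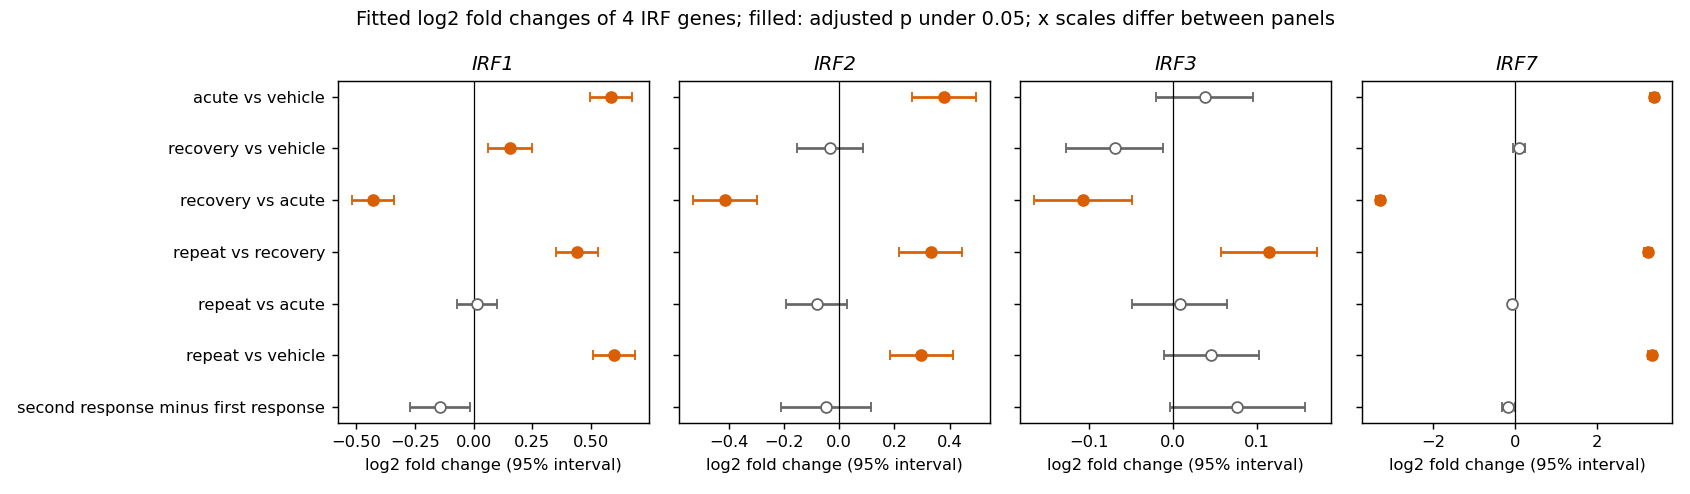
Fitted log2 fold changes of IRF1, IRF2, IRF3 and IRF7 (x axis, a different scale in each panel) with 95% intervals, for 6 comparisons and the difference between both responses (y axis). Filled points passed an adjusted p under 0.05. IRF7 lies at 3.39 for acute over vehicle and 3.23 for repeat over recovery, and IRF3 at 0.04 and 0.11.

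The later response was compared with the first in the same fit, as repeat over recovery set against acute over vehicle. Recovery cells, held 5 d without interferon, stand in here for the level before the later pulse. The level of the repeat cells themselves after their 4 d without interferon was not measured. Of the tested members 0 of 4 differed, where 0.221% of tested genes had a higher later response and 0.43% a lower one. The estimates were -0.16 ± 0.075 for IRF7 (adjusted p = 0.44, edgeR) and -0.14 ± 0.062 for IRF1 (adjusted p = 0.386), on the log2 scale. Their unadjusted 95% intervals, -0.32 to -0.01 and -0.27 to -0.02, did not include 0, while neither passed the adjustment over all genes. For IRF2 the estimate was -0.05 ± 0.079 (adjusted p = 0.89) and for IRF3 it was 0.08 ± 0.039 (adjusted p = 0.502).

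**Figure D3:**
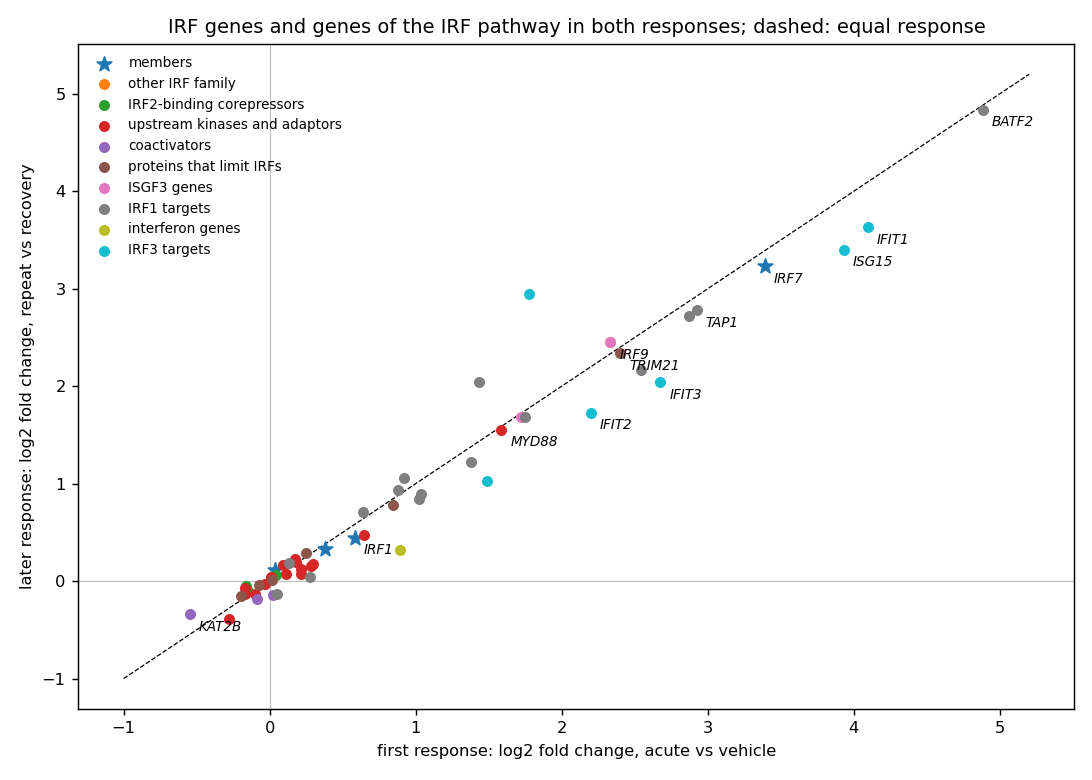
Response to the later pulse (y axis, log2 fold change of repeat over recovery) against the response to the first (x axis, log2 fold change of acute over vehicle) for IRF genes (stars) and genes of the IRF pathway (points, coloured by list); on the dashed line both are equal. IRF7 lies at 3.39 and 3.23, while IFIT1, IFIT2, IFIT3 and ISG15 lie below the line.

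Levels of different IRF genes can be compared only per unit of gene length, and here the order depended on how length was taken. With CPM divided by the canonical GENCODE transcript in kb, the vehicle order was IRF3 at 39.5 ± 1.05, IRF2 at 8.48 ± 0.191, IRF1 at 6.60 ± 0.541, IRF7 at 3.61 ± 0.285 and IRF5 at 0.0316 ± 0.0144 CPM per kb (SD, n = 3 each). In acute cells IRF7 moved to 37.9 ± 1.501 CPM per kb, just under IRF3 at 40.5 ± 0.534. IRF2 (11.1 ± 0.468) and IRF1 (9.93 ± 0.115) came next. In repeat cells IRF2 at 10.4 ± 0.698 and IRF1 at 10.0 ± 0.166 overlapped and did not differ beyond their spread. In recovery cells the order was that of vehicle, with IRF2 at 8.27 ± 0.682 and IRF1 at 7.38 ± 0.0769. This scale was chosen after the values were seen.

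On the authors' TPM the order was different, because IRF1 came out highest, at 490 ± 46.3 TPM in vehicle and 762 ± 40.99 TPM in acute cells. IRF3 followed in both groups, at 175 ± 7.74 and 175 ± 4.29 TPM. Below it, IRF2 (16.6 ± 1.79 TPM) was above IRF7 (4.43 ± 0.547 TPM) in vehicle cells, and IRF7 (48.9 ± 4.90 TPM) was above IRF2 (21.4 ± 1.66 TPM) in acute cells. Counts and TPM together give relative gene lengths. These were put in bases by a median factor per library, from the canonical transcripts of genes with at least 500 counts in every library. On that scale IRF1 had an implied length of 70.3 bases, with 64.7 to 74.3 over the libraries. That is 1.98% of its canonical transcript of 3554 bases. Of 9013 genes with at least 500 counts in every library, 3 (0.0333%), IRF1 included, had so small a share. GENCODE lists 50 transcripts for IRF1, the shortest of them 60 bases long. For IRF2, IRF3 and IRF7 the implied lengths were 1719, 552 and 2331 bases, or 76.2%, 34.6% and 121% of the canonical transcript. The TPM of IRF1 therefore cannot be set against that of the other IRFs, whereas its log2 change in acute against vehicle lay between 0.53 and 0.65 under every alternative run, TPM included.

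**Figure D4:**
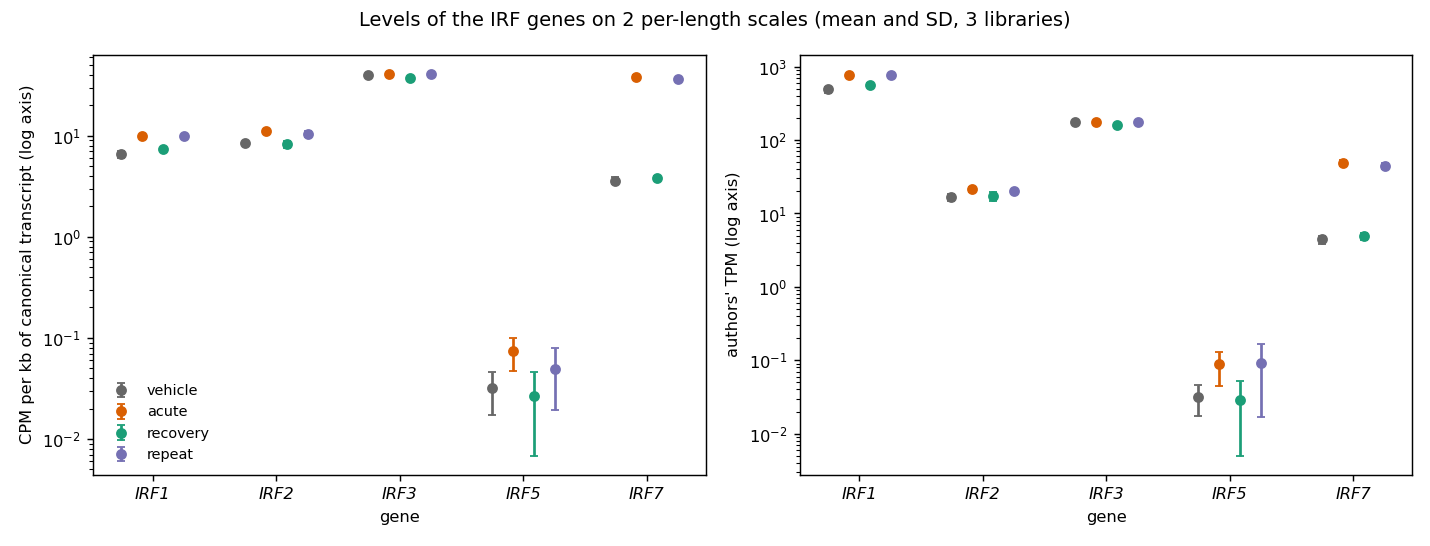
Levels of the 5 IRF genes (x axis) in the 4 groups on the scale of CPM per kb of canonical transcript (left) and of the authors' TPM (right), on log axes, as mean and SD of 3 libraries. IRF3 is highest on the left at 37.6 to 40.8 CPM per kb and IRF1 is highest on the right at 490 to 766 TPM.

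The balance of IRF2 to IRF1 was followed as a log2 ratio of TPM within each library. It was -4.85, -4.72 and -5.08 in vehicle, -5.11, -5.21 and -5.16 in acute, -5.05, -5.17 and -4.90 in recovery, and -5.17, -5.28 and -5.25 in repeat libraries. All acute and repeat libraries were below all vehicle libraries. The difference from vehicle was -0.27 in acute and -0.35 in repeat cells, each with a two-sided p of 0.1 by an exact permutation test, the smallest that 3 against 3 libraries allow (0.3 adjusted over 6 comparisons). The ratio of counts, added after the short implied length of IRF1 was seen, differed by -0.21 (p = 0.2, exact permutation) and -0.31 (p = 0.1, exact permutation). On counts recovery differed from vehicle by -0.20 (p = 0.2, exact permutation), much as acute did, and from acute by 0.01 (p = 1, exact permutation). Since no p under 0.1 can arise here, these tests do not decide whether the balance moved.

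The other genes of the pathway were described from lists drawn from textbook knowledge with earlier results of these data known. Upstream of IRF3, IRF5 and IRF7 stand adaptors and kinases such as TBK1 and IKBKE. Of 17 listed, 16 were tested, 9 rose and 4 fell in acute against vehicle cells, where 22.3% of all tested genes were called higher and 21.5% lower. Their median log2 fold change was 0.14. The share that fell is near that of all genes. MYD88, the adaptor through which Toll-like receptors reach IRF5 and IRF7, rose most, from 20.2 ± 0.652 to 60.8 ± 0.853 CPM (log2 fold change 1.59 ± 0.035, adjusted p = 4.34e-24, edgeR). STING1, the adaptor of cytosolic DNA sensing, rose by 0.65 ± 0.036 on the log2 scale, IRAK4, a kinase bound to MYD88, by 0.30 ± 0.048, and SLC15A4, a lysosomal transporter that anchors the IRF5 adaptor TASL, by 0.28 ± 0.046. TASL itself had 2 counts in all 12 libraries.

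Of the genes chosen after their values were seen, the kinase genes TBK1 and IKBKE rose by 0.21 ± 0.038 and 0.17 ± 0.049, and MAVS, the adaptor of RNA sensing, fell by 0.28 ± 0.025. MAVS was at 213, 221 and 210 CPM in vehicle and 177, 177 and 179 CPM in acute libraries, with no overlap. The calls for IRAK4, TBK1 and IKBKE were lost on log2(TPM + 0.5), at 0.23, 0.18 and 0.12 (adjusted p = 0.0853, 0.0618 and 0.539). In recovery cells 1 of the 16, STING1, stayed above vehicle, by 0.34 ± 0.037 (adjusted p = 3.07e-07), and 0 were lower. There 3.03% of all tested genes were called higher and 2.91% lower. After the later pulse 8 rose and 3 fell against recovery, where 21.1% of all tested genes were called higher and 20.5% lower. Against acute cells STING1 was higher by 0.17 (adjusted p = 0.0034), and by 0.15 on log2(TPM + 0.5), not called (adjusted p = 0.41). The adaptor TICAM1 was lower than in acute cells by 0.16 on the log2 scale (-0.16, adjusted p = 0.0195). This TICAM1 value was not recomputed under the alternatives.

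The ISGF3 genes IRF9 and STAT2 rose in acute cells. IRF9 went from 15.7 ± 0.512 to 79.4 ± 0.967 CPM (log2 fold change 2.33 ± 0.034, adjusted p = 1.32e-28, edgeR) and STAT2 from 59.2 ± 3.38 to 195 ± 5.63 CPM (1.72 ± 0.035). Neither was called in recovery against vehicle, with edgeR adjusted p of 0.0587 and 0.0954. STAT2 was called lower there under 3 alternatives, which were no filter on low counts (-0.11, adjusted p = 0.0175), the replicate block (-0.11, adjusted p = 0.0261) and leaving out vehicle replicate 3 (-0.14, adjusted p = 0.0439). IRF9 was called lower there under 1 alternative, without vehicle replicate 3 (-0.16, adjusted p = 0.0357). Both rose again after the later pulse, and STAT2 remained 0.15 below acute on the log2 scale (-0.15, adjusted p = 0.01), a call lost on log2(TPM + 0.5) at -0.20 (adjusted p = 0.499), without acute replicate 1 at -0.14 (adjusted p = 0.0514) and without acute replicate 3 at -0.14 (adjusted p = 0.0617).

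Genes that act on IRF proteins moved in both directions. Among 7 that limit IRFs, 3 rose and 3 fell in acute against vehicle cells, with a median log2 fold change of 0.02. Of all tested genes, 22.3% were called higher and 21.5% lower. TRIM21, a ubiquitin ligase, rose from 9.87 ± 0.513 to 52.0 ± 0.908 CPM (2.40 ± 0.047, adjusted p = 1.83e-25, edgeR), RBCK1, a ligase that promotes loss of IRF3, by 0.84 ± 0.025, and the kinase LYN, an inhibitor of IRF5, by 0.25 ± 0.056. On log2(TPM + 0.5) LYN had a value of 0.27, as large, but was not called (adjusted p = 0.0838). Among those that fell, FOXO3 was at -0.19 ± 0.037 (adjusted p = 0.000258, edgeR) and STUB1 at -0.08 ± 0.025 (adjusted p = 0.0166, edgeR). These values of FOXO3 and STUB1 were not recomputed under the alternatives.

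Of the 3 corepressors named for binding IRF2, 2 fell and 0 rose in acute cells: IRF2BPL by 0.17 ± 0.050 and IRF2BP1 by 0.15 ± 0.038. Among all tested genes 21.5% were called lower and 22.3% higher there. The calls for IRF2BPL and IRF2BP1 were both lost on log2(TPM + 0.5), at -0.14 each (adjusted p = 0.162 and 0.0733). That for IRF2BPL was also lost without vehicle replicate 1, acute replicate 1 or acute replicate 2, at -0.14 to -0.13 (adjusted p = 0.0537, 0.058 and 0.0607). Of 3 coactivators, 1 fell, the acetyltransferase KAT2B, by 0.55 ± 0.054 (adjusted p = 2.12e-09, edgeR). That value was -0.15 on log2(TPM + 0.5) and was not called there (adjusted p = 0.497).

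Genes commonly given as IRF1 targets were largely higher after the pulse: of 17 listed, 15 were tested, 13 rose and 0 fell in acute cells, with a median of 1.03. Of all tested genes, 22.3% were called higher and 21.5% lower in that comparison. BATF2 rose from 0.261 ± 0.0358 to 7.87 ± 0.769 CPM (4.88 ± 0.174, adjusted p = 3.56e-19, edgeR). TAP1, a peptide transporter of antigen presentation, rose by 2.92 ± 0.029, PSMB9, an immunoproteasome subunit, by 2.87 ± 0.045 and TLR3, a sensor of double-stranded RNA, by 2.54 ± 0.106. Many of these genes also respond to ISGF3, so the list is no measure of IRF1 alone. VCAM1 and NOS2 did not pass the filter, with 92 and 13 counts in all. In recovery cells 2 of the 15 were above vehicle (PSMB9 by 0.43 ± 0.058, TAP1 by 0.20 ± 0.034) and 1 was below (CDKN1A, at -0.13). There 3.03% of all tested genes were called higher and 2.91% lower. PSMB9 was also above acute in repeat cells, by 0.28 (adjusted p = 5.18e-06), a call lost on log2(TPM + 0.5) at 0.30 (adjusted p = 0.141).

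Of the genes commonly given as IRF3 targets, 6 of 6 rose in acute cells, with a median of 2.44. Among all tested genes 22.3% were called higher and 21.5% lower there. CXCL10, one of the 6, was near the floor, with 83 counts over the 12 libraries. IFIT1 rose by 4.09 ± 0.031, ISG15 by 3.93 ± 0.033, IFIT3 by 2.67 ± 0.037 and IFIT2 by 2.20 ± 0.039. IFIT1, ISG15, IFIT3 and IFIT2 are antiviral genes and also targets of ISGF3. In recovery cells 4 of the 6 were above vehicle and 0 below: IFIT3 by 0.67, IFIT2 by 0.57, ISG15 by 0.53 and IFIT1 by 0.49. There 3.03% of all tested genes were called higher and 2.91% lower. The IFIT3 call was lost on log2(TPM + 0.5), at 0.44 (adjusted p = 0.224).

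Interferon genes, which IRF3 and IRF7 switch on in infected cells, stayed near 0. Of 20 listed, 17 had 0 counts in all 12 libraries (IFNA1, IFNA2, IFNA4, IFNA5, IFNA6, IFNA7, IFNA8, IFNA10, IFNA14, IFNA16, IFNA17, IFNA21, IFNW1, IFNK, IFNL1, IFNL2 and IFNL3). A count of 0 allows up to 0.0482 to 0.0751 CPM per library, at 3 counts. IFNB1, the first target of IRF3, had 6 counts in all and at most 3 in a library, and IFNA13 had 1. IFNE was the only one tested, at 0.89 (adjusted p = 0.0827, edgeR) in acute against vehicle. IFNA genes are near-identical to each other, so reads may have been split or dropped. IRF7 mRNA thus rose in libraries where 17 of 20 interferon genes had no count.

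Of the family members outside the list, IRF4 and IRF8 were sparse or not detected. IRF4, a lymphocyte factor, had 10 counts in all, and IRF8, a myeloid factor, had 0.

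Genes overlapping the members or next to them in the genome were read in acute against vehicle cells. IRF1-AS1, a long non-coding RNA on the opposite strand that overlaps IRF1, rose from 1.55 ± 0.0710 to 4.77 ± 0.0830 CPM (1.62 ± 0.127, adjusted p = 1.76e-11, edgeR), fell back to 1.72 ± 0.356 CPM in recovery and reached 4.79 ± 0.196 CPM in repeat cells. It had 1921 counts in all, beside 17913 for IRF1. The libraries are labelled stranded, but whether counting used strand is not given in the sources used here, so reads of IRF1 and IRF1-AS1 may not be separate. ENSG00000283782, a protein-coding gene that overlaps IRF1 on the opposite strand, was at -0.18 ± 0.308 (adjusted p = 0.699). SLC22A5, the nearest protein-coding gene at lower coordinates, rose by 0.38 ± 0.098.

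PHRF1, which ends 330 bases from IRF7 on the opposite strand, rose by 0.25 ± 0.027 (adjusted p = 9.33e-09, edgeR), and CDHR5 on the other side had 2 counts in all. PHRF1 went from 80.4 ± 2.46 to 95.8 ± 2.04 CPM. BCL2L12, which overlaps the start of IRF3 on the opposite strand, fell by 0.14 ± 0.039 (adjusted p = 0.00463), though its value was 0.06 on log2(TPM + 0.5) and not called. SCAF1 rose by 0.18 ± 0.023 and PRMT1 fell by 0.09 ± 0.026 beside IRF3. TNPO3, next to IRF5, fell by 0.06 ± 0.026 (adjusted p = 0.0472). The SCAF1 call was lost on log2(TPM + 0.5), at 0.12 (adjusted p = 0.0841). The TNPO3 call was lost there too, at -0.06 (adjusted p = 0.323), and also with DESeq2 (adjusted p = 0.0812), limma-voom (adjusted p = 0.0548), no filter on low counts (adjusted p = 0.0843) and any 1 vehicle or acute library, recovery replicate 3 or repeat replicate 3 left out (-0.07 to -0.05).

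**Figure D5:**
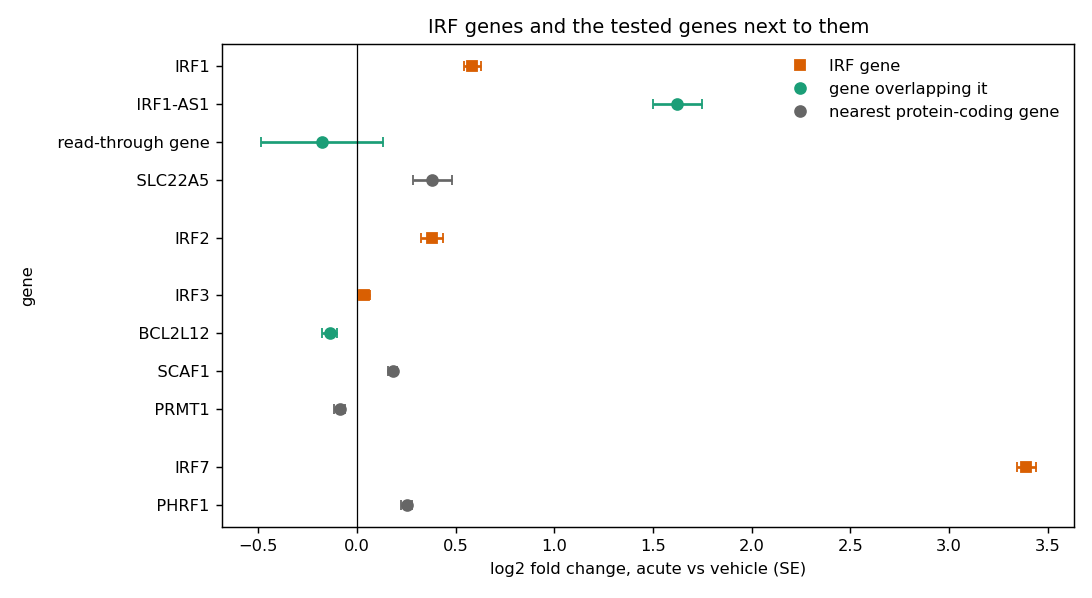
Log2 fold change of acute over vehicle (x axis, with SE) for each tested IRF gene (squares), genes overlapping it (green) and nearest tested protein-coding genes (grey; for IRF2 none is drawn), listed on the y axis (the read-through gene is ENSG00000283782). IRF1-AS1 at 1.62 lies above IRF1 at 0.58, while PHRF1 at 0.25 lies far below IRF7 at 3.39.

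Among 10465 protein-coding genes with a mean of at least 5 CPM, those whose log2 CPM (prior count 2) followed each IRF most closely over the 12 libraries were found by Pearson's r, as a description, since the libraries share the 4 groups. For IRF7 they were TRIM14, LGALS3BP and PARP12, each at 0.9994. For IRF1 they were OAS1 (0.992), MX2 (0.991) and SRPRB (0.988). OAS1 and MX2 had far larger changes than IRF1, with log2 fold changes of 8.97 and 9.42 in acute against vehicle cells, and were at 2.23 and 2.89 in recovery against vehicle. Their vehicle means were only 0.419 and 0.30 CPM, so the size of these fold changes rests on few vehicle counts. In recovery cells they were at 2.04 and 2.39 CPM. For IRF2 they were KANK1 (0.967), WASHC4 (0.966) and CBLB (0.966), and for IRF3 TRIP4 (0.948), DUSP11 (0.935) and HAPLN3 (0.930).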

How the data were processed

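The members and the gene lists were chosen with earlier results of these data known. The authors deposited estimated counts for each gene without scaling across libraries, and TPM, a length-scaled abundance that sums to 1000000 per library. Build GRCh38.p13 and the tools cutadapt 4.3, edgeR, featureCounts 2.0.3, Picard 2.27.5, Trim Galore 0.6.10 and STAR 2.7.11a are named per the submitters' processing notes. Per the labels' design text the annotation was GENCODE release 41 and the test was DESeq2. Of the nonzero counts in the deposited table, 25.49% were not whole, so counts were rounded.

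Counts were tested in R 4.3.3 with edgeR 4.0.16 (quasi-likelihood F test, robust, TMM scaling, filterByExpr), with all 12 libraries in 1 fit and no covariate. A gene was called at a two-sided Benjamini-Hochberg adjusted p under 0.05 over 18119 genes. Between replicates the common coefficient of variation was 2.67%. The fit was tested on simulated data. Intervals of fold changes are 95% intervals of the fit. Depth was 39.9 to 62.3 M counts per library, so low counts set the precision of IRF5. P-values measure the spread between the libraries, described as biological replicates. Levels per length used GENCODE release 44. Promoter windows came from RefSeq on GRCh38.p14, and 2 of the 5 members matched.

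From each list up to 4 called genes with the largest absolute change in acute against vehicle were named, with those not detected. Some genes that this rule names are not reported here. Neighbours were every overlapping gene and the nearest protein-coding gene on each side, and like patterns were the 3 highest correlations. Alternatives were DESeq2 1.42.0, limma 3.58.1 (voom, or log2 TPM with a pseudocount of 0.5 or 1), other scalings and filters, a gene length offset, a replicate block and leaving out each library.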

Additional observations from a re-analysis of the deposited data

Results flagged for a closer look

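Of the genes listed for the IRF pathway, 4 had a later response (repeat minus recovery) that differed from the first response (acute minus vehicle) by the interaction test of edgeR, all smaller the later time. On the log2 scale the difference was -0.64 ± 0.050 for IFIT3 (adjusted p = 9.06e-06), -0.53 ± 0.044 for ISG15 (adjusted p = 2.49e-07), -0.47 ± 0.054 for IFIT2 (adjusted p = 0.000529) and -0.47 ± 0.044 for IFIT1 (adjusted p = 2.71e-07). All 4 are among the IRF3 targets, and all 4 were above vehicle in recovery cells. A smaller later response was not particular to that list. It was also called for OAS1, MX2 and TRIM14, named above for their like patterns. Those calls were lost on log2(TPM + 1) with limma, at -0.46, -0.95 and -0.23 (adjusted p = 0.592, 0.0913 and 0.589). Of all tested genes, 0.221% had a higher later response and 0.43% a lower one. IFIT3 was at 82.0 ± 3.61 CPM in vehicle, 524 ± 18.4 in acute, 130.3 ± 5.60 in recovery and 535 ± 10.9 CPM in repeat cells. ISG15 was at 46.4 ± 1.22, 708 ± 12.8, 67.0 ± 1.65 and 707 ± 32.6 CPM in the same order. None of these 4 genes was called between repeat and acute cells, with edgeR adjusted p of 0.713 for IFIT3, 0.98 for ISG15, 0.123 for IFIT2 and 0.765 for IFIT1. IFIT2 was called there by 4 alternatives, at 0.10 to 0.11. On log2(TPM + 0.5) the interaction of IFIT3 was -0.34 (adjusted p = 0.759), that of IFIT2 -0.46 (adjusted p = 0.183) and that of IFIT1 -0.45 (adjusted p = 0.0777), while ISG15 kept its call. Recovery and vehicle cells also differ in time in culture, which cannot be told apart from the earlier pulse. The recovery level only stands in for the level before the later pulse, which was not measured.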

How the results depend on the processing

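For IRF1, IRF2, IRF3 and IRF7, 28 results were recomputed under 640 alternative values. Of these, 618 kept their direction or stayed uncalled, 22 lost their call and 0 reversed a call, while 8 uncalled values had the other sign. IRF7 kept its calls in acute against vehicle (3.20 to 3.45), recovery against acute (-3.33 to -3.08), repeat against recovery (2.94 to 3.26) and repeat against vehicle (3.06 to 3.36) under every alternative run.

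IRF1 in recovery against vehicle lost its call with DESeq2 (0.1575), on log2(TPM + 0.5) (0.2052), on log2(TPM + 1) (0.2050), with the gene length offset (0.2034) and with only the groups compared (0.1565). It ranged from 0.0999 to 0.2202 with 1 library left out, and where the call was lost the highest was 0.1599. IRF2 lost its call on log2(TPM + 0.5), log2(TPM + 1) and the offset in recovery against acute (-0.3073, -0.2995, -0.2825), repeat against recovery (0.2416, 0.2352, 0.2262) and repeat against vehicle (0.2892, 0.2816, 0.2806). IRF3 lost its call with the offset in recovery against acute (-0.0888) and repeat against recovery (0.1064). IRF3 in acute against vehicle, never called, was -0.02 with the offset.

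Counts of all genes called, on log2(TPM + 0.5), log2(TPM + 1) and with the offset, were 4324, 4344 and 4416 in acute against vehicle (7938 in the main result), 120, 118 and 178 in recovery against vehicle (1076), 3839, 3836 and 3914 in recovery against acute (7448), 3812, 3824 and 3971 in repeat against recovery (7546), 6, 6 and 10 in repeat against acute (761), 4663, 4651 and 4777 in repeat against vehicle (8391), and 5, 3 and 11 for the difference between responses (118). That difference gave 215 with DESeq2 and 333 with no filter. Repeat against acute gave 506 with only the groups compared. With 1 library left out, counts ran from 627 (without vehicle replicate 1) to 1180 in recovery against vehicle, 340 (without acute replicate 3) to 1233 (without repeat replicate 1) in repeat against acute, and 51 (without acute replicate 3) to 348 (without repeat replicate 1) for the difference between responses. The cause was not tested.

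Among 45 other named genes, 6907 of 7200 alternative values stayed on their side, 266 lost a call, 21 gained one and 6 reversed: BCL2L12 in acute against vehicle at 0.0630, 0.0625 and 0.0449, and DUSP11 at -0.0761, -0.0739 and -0.1045 (log2(TPM + 0.5), log2(TPM + 1), offset), all uncalled. Whether the replicate numbers pair the samples was not settled. Deviations of 18 same-number pairs correlated at -0.082 to 0.076, with a median of 0.002 beside -0.007 for other numbers. Yet 8 of 12 libraries were closest to their own number. With the replicate block the counts were 7983, 1125, 7494, 7565, 855, 8409 and 160, in the order above, and no member changed its call. Depth limits IRF5, IRF4 and IRF8, whose counts are near 0.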
